A study of Xenopus tropicalis with 9 samples.

Results

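The genes described here are the natriuretic peptide genes nppa, nppb and nppc, the protease gene corin and the growth factor gene bmp10 of the western clawed frog, Xenopus tropicalis. They were taken by symbol from the deposited tables. All 5 symbols were found among 30330 genes, and each has 1 row in both tables. Adult tissues were sequenced as 9 mRNA libraries. Heart and head are each represented by a female and a male library (n = 2 per tissue), testes by a male library, and ovary, lung, GI tract and intestine by a female library each. No strain, genotype or treatment is given in the labels. The labels name neither the heart chambers taken nor the number of animals. The p-values therefore reflect only how far these samples differ, and part of that spread may be technical.

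Natriuretic peptides are hormones cut from larger precursors. In mammals the atrial peptide ANP (nppa) and the B-type peptide BNP (nppb) are made by heart muscle cells, released when the wall is stretched, and lower blood volume and pressure through the receptor guanylyl cyclase npr1 and the messenger cGMP. The C-type peptide CNP (nppc) acts mainly near its source, in vessels, brain and growing cartilage, through npr2, and npr3 clears all of these peptides. Corin is the membrane protease that cuts pro-ANP in mammalian heart muscle. BMP10 is a secreted BMP of the atrial wall in adult mice, and signals in endothelium through the receptor acvrl1 (ALK1) and the co-receptor endoglin (eng).

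The libraries held 27625145 to 34692548 counts, so a floor of 3 counts was 0.0865 to 0.109 counts per 1000000 counts (CPM). The hearts did not match each other: oocyte marker genes summed to 2803 TPM (transcripts per 1000000 transcripts, a level corrected for length) in female heart and 1.43 in male heart. They also summed to 2138 TPM in female lung, against 2174 in ovary, 548.5 in testes, 71.19 in GI tract and 0.65 in intestine. The testes sum was mostly ddx25, at 478.02 TPM. In the heads the oocyte markers summed to 138.2 TPM in female (9 of 9 genes at 1 TPM or more) and 3.67 in male (1 of 9). The gene in male head was bmp15, at 3.36 TPM from 5 counts. At 1 TPM or more were 9 of 9 oocyte markers in female heart and lung and 0 of 9 in male heart, where nanos1 and figla were at 0. The cardiomyocyte list was present in both hearts, with 11 of 11 genes at 1 TPM or more, and summed to 40470 TPM in female and 67200 TPM in male heart. Endothelial genes summed to 24.46 and 166.3 TPM in the same libraries. Lung epithelium genes summed to 21580 TPM in lung, and cartilage and bone genes to 931.9 and 1202 TPM in the heads.

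The hormone gene nppa was a heart transcript. It stood at 1772.68 TPM in female heart and 2648.7 TPM in male heart, from 30465 and 48865 counts. It was the 52nd and 41st most abundant gene by TPM in those libraries. Female lung followed at 14.65 TPM (195 counts). The other libraries were far lower: 4 counts in female head, 2 in GI tract, 1 each in male head and ovary, and 0 in testes and intestine, which at the floor of 3 counts allows up to 0.0983 and 0.0924 CPM there. The hearts did not overlap with any other library, and the lower heart was 121 times the lung level in TPM. Below the lung, the counting intervals of neighbours in the order overlapped, so these libraries were not ordered at this depth.

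The second cardiac hormone gene, nppb, was high in the same hearts but was also detected elsewhere. It reached 765 TPM in female heart and 2261.6 TPM in male heart. Female lung held 9.71 TPM, female head 4.11, male head 3.17, ovary 1.89, testes 1.29, intestine 1.24 and GI tract 1.11. The lower heart was 78.8 times the lung level. Outside heart and lung nppb had 20 to 73 counts, where nppa had 0 to 4. In ovary, for example, nppb had 38 counts (95% exact Poisson interval 26.9 to 52.2) and nppa 1 (0.0253 to 5.57). Intervals and floors cover counting error only. From lung to female head the nppb intervals did not overlap, and from female head downwards those of neighbours did.

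The protease gene corin was highest in the hearts and very unequal between them. It stood at 85.87 TPM in male heart (8633 counts) and 6.4 TPM in female heart (604 counts). The next libraries were male head at 2.53 TPM and female head at 1.82 TPM, then testes at 1.16, intestine at 0.85, lung at 0.48 and GI tract at 0.23. Ovary had 0 counts, which allows up to 0.109 CPM. Female heart was 2.53 times male head, a much narrower margin than for nppa or nppb.

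The growth factor gene bmp10 stood at 29.5 TPM in male heart (4274 counts) and 2.54 TPM in female heart (346 counts). No other library passed 0.21 TPM, the level of female head, and the 7 libraries outside heart had 0 to 26 counts each. The lower heart was 12.1 times female head. Outside the hearts, the counting intervals of neighbours in the order all overlapped.

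The C-type peptide gene nppc did not follow the others. It was low throughout, at 9.57 TPM in male heart, 7.57 in testes, 7.5 in male head, 7.18 in GI tract and 5.68 in female head. Intestine had 2.05 TPM, lung 1.81, female heart 0.98 and ovary 0 counts. Male heart was thus the highest library and female heart the second lowest, so the hearts lay on both sides of the heads. By CPM the order was male heart, GI tract, testes, male head and female head, and among the last 4 the intervals of neighbours overlapped.

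**Figure D1:**
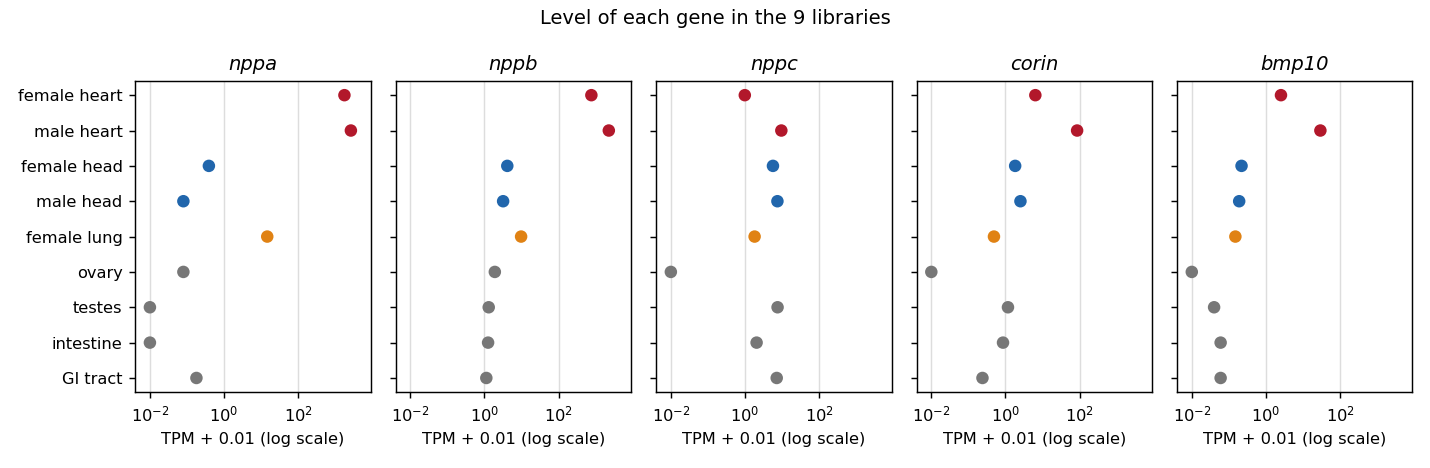
Level of each gene in TPM, with 0.01 added so that zeros can be drawn on a log axis; 1 point per library, hearts in red, heads in blue, lung in orange and the other tissues in grey. Both hearts stand above every other library for nppa, nppb, corin and bmp10, while for nppc male heart is highest at 9.57 TPM and female heart is at 0.98 TPM.

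Heart therefore held most of the signal of 4 of the 5 genes. Of the 7 tissue means summed, heart carried 99.3% for nppa, 98.8% for nppb, 97.2% for bmp10, 90.4% for corin and 17.3% for nppc. With female heart as the only heart library these shares were 99.2%, 97.6%, 84.5%, 56.7% and 3.74%, so those of corin and nppc rest on male heart, and bmp10 and corin then lie under 90%. As background, 47 of 13935 genes with a tissue mean of at least 10 TPM had 90% or more of this sum in heart, or 0.337%. Both hearts lay above all 7 other libraries for those 4 genes. Among all genes with at least 1 TPM in a library, 1.43% did so. Male heart was the highest library for 5 of 5, against 5.75% of all genes.

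Heart was compared with head, the only other tissue with more than 1 library. Mean levels (± SD, n = 2 per tissue) were 2211 ± 619 TPM in heart and 0.225 ± 0.219 in head for nppa. They were 1513 ± 1060 and 3.64 ± 0.665 for nppb, 46.14 ± 56.2 and 2.175 ± 0.502 for corin, and 16.02 ± 19.1 and 0.195 ± 0.0212 for bmp10. For nppc they were 5.275 ± 6.07 in heart and 6.59 ± 1.29 in head. For corin, bmp10 and nppc the SD of the hearts exceeded their mean.

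In edgeR's quasi-likelihood test on the 4 libraries, adjusted over 19276 genes, 0 of 5 genes passed, as did 0% of all genes. At an unadjusted p under 0.05 there were 4670 genes, and DESeq2 called 3907. The DESeq2 calls held 653 genes higher in heart, with nppa, nppb, corin and bmp10 among them. The log2 fold change for heart minus head was 14.5 (SE 1.32, adjusted p = 0.0664) for nppa and 9.55 (SE 1.19, adjusted p = 0.0664) for nppb. It was 7.28 (SE 1.66, adjusted p = 0.0835) for bmp10, 5.35 (SE 1.57, adjusted p = 0.131) for corin and 0.639 (SE 1.23, adjusted p = 0.765) for nppc, all from edgeR. An adjusted p of 0.0664 was the lowest of any gene in this fit.

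With sex as a block, edgeR called nppa, nppb, corin and bmp10 higher in heart, 4 of 5, where 1.42% of all genes were called higher. Their adjusted p was 1.88e-11, 5.59e-08, 0.00553 and 7.02e-05 in that order, and for nppc 0.958 with a log2 fold change of -0.191. That fit has 1 residual degree of freedom. Its p-values are those of a normal distribution for the fold change over its SE. Such p-values rest on a spread pooled over all genes, not on each gene's own spread between libraries. The same holds for the other fits with a sex term and for the fits without a head. The SE was larger with the block than without it for nppa (1.82 against 1.32) and nppb (1.49 against 1.19). It was smaller for corin (1.2 against 1.57) and bmp10 (1.32 against 1.66). For nppa and nppb the lower adjusted p thus did not come with a smaller SE. The fold of nppc had no stable sign: without female heart it was 1.52 (edgeR adjusted p = 0.0469), and without male heart -1.99 (edgeR adjusted p = 0.0373). Leaving out female heart moved the log2 fold change of corin to 6.27 and that of bmp10 to 8.19, and all 5 genes were called higher in heart, where 11% of all genes were. Leaving out male heart gave 2.14 and 4.27; nppa, nppb, corin and bmp10 were then called higher in heart, against 22.1% of all genes, and nppc lower, against 27.9%. Leaving out a head called nppa alone, 1 of 5, against 0.455% of all genes called higher without female head and 0.0249% without male head. The edgeR adjusted p without female head was 0.0822 for nppb, 0.11 for bmp10 and 0.342 for corin, and without male head 0.16, 0.146 and 0.36.

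**Figure D2:**
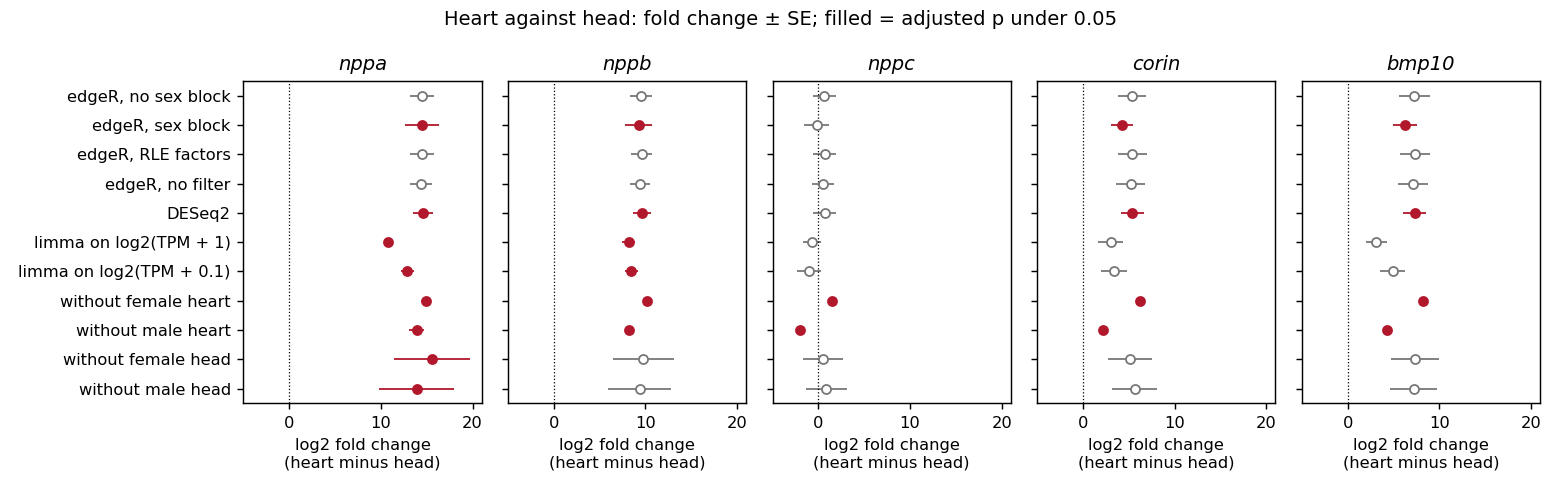
Log2 fold change of heart minus head with its SE for each gene under 11 settings. Filled red points had an adjusted p under 0.05, which with a heart left out rests on the spread of the head pair alone. The values for nppa lie between 10.8 and 15.6 and those for nppb between 8.16 and 10.2, corin is lowest without male heart (2.14), bmp10 is lowest with limma on log2(TPM + 1) (3.12), and nppc changes sign.

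Against the mean of the other 6 tissues, in a fit of all 9 libraries, the log2 fold change was 14.6 for nppa (edgeR adjusted p = 0.0512), 9.59 for nppb (0.0627), 9.15 for bmp10 (0.11), 7.85 for corin (0.121) and 2.49 for nppc (0.401). Where a library is at 0 these folds depend on the prior count and are no bounds. No gene of 23090 passed, or 0%, while 3267 had an unadjusted p under 0.05 and DESeq2 called 2430. The DESeq2 calls held 1195 genes higher in heart, again with nppa, nppb, corin and bmp10 among them. The 5 tissues with a single library were assumed to vary like the head and heart pairs. With sex as a block, the edgeR SE rose from 0.808 to 1.13 for nppa and from 0.702 to 0.903 for nppb. It fell from 1.11 to 0.948 for corin and from 1.12 to 1.02 for bmp10. In that fit the same 4 genes (nppa, nppb, corin and bmp10) were called higher in heart, against 2.89% of all genes. They were also called when either heart was left out, where 12.7% (without female heart) and 9.18% (without male heart) of all genes were, and nppc was called as well without female heart. For nppc that log2 fold change was 3.56, and the call rests on the spread of the head pair alone. Male heart held 9.57 TPM of nppc, near testes (7.57), male head (7.5) and GI tract (7.18), while ovary had 0 counts. The nppc fold was 1.41 with the sex block, 2.44 with DESeq2 and 0.17 and 0.484 with limma, and nppc was not called in these fits. Head against the other 6 tissues called 0 of 5, where 9.96% of all genes were called. The edgeR adjusted p was 0.349 for nppc, 0.412 for corin and 0.318 for nppb. Heart is 1 of the other 6 tissues in this contrast. For nppb the heads (4.11 TPM in female, 3.17 in male) lay below the hearts and lung (9.71). They lay above ovary (1.89), testes (1.29), intestine (1.24) and GI tract (1.11). When a heart was left out, nppc and corin were called higher in head and nppb lower. The shares of all genes called higher and lower were then 28.1% and 8.92% without female heart, and 30.4% and 13.1% without male heart.

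The hearts of the sexes differed by gene within the family. Female heart held 66.9% of the male heart level in TPM for nppa and 33.8% for nppb, but 10.2% for nppc, 8.61% for bmp10 and 7.45% for corin. As ratios of CPM with 95% exact counting intervals, these were 0.637 (0.627 to 0.646), 0.318 (0.312 to 0.324), 0.109 (0.0778 to 0.15), 0.0827 (0.0739 to 0.0922) and 0.0714 (0.0657 to 0.0776). At most 25% of the male heart level was reached by nppc, corin and bmp10, and by 14.8% of genes with at least 1 TPM in either heart. There is 1 heart per sex, so the difference between the hearts has no replicate check.

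Heart muscle genes did not share a single ratio either. The 11 cardiomyocyte markers ranged from 14.1% to 80.8% of the male heart level with a median of 27.8%, and the 10 endothelial and endocardial markers from 9.92% to 21.8% with a median of 14.7%. Thus nppa and nppb lay inside the cardiomyocyte range and corin, bmp10 and nppc below its lowest member. The endothelial and endocardial range took in nppc, while corin and bmp10 lay below that range too. Over 14118 genes with at least 1 TPM in either heart that were also detected in male heart, the median was 131%. Genes not detected in male heart have no such ratio and were left out of this median. Set against myl7, the light chain gene of heart muscle, nppa was 89.6 per 1000 in female and 94 in male heart on the TPM scale. The same quantity was 38.6 and 80.3 for nppb, 0.323 and 3.05 for corin and 0.128 and 1.05 for bmp10. These values depend on myl7 as the reference gene, at 19795.41 TPM in female and 28174.42 in male heart. The gap between the hearts was wider for tnnt2 (2585.72 and 5801.68) and mybpc3 (320.54 and 1184.15), and narrower for tnnc1 (6395.5 and 7919.98). The ratio of nppa to nppb was 2.32 in female and 1.17 in male heart. The oocyte markers moved with this difference, at 2803 summed TPM in female and 1.43 in male heart, and their part in it was not tested. In these bulk samples, fewer cells of a type and less RNA per cell cannot be told apart.

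**Figure D3:**
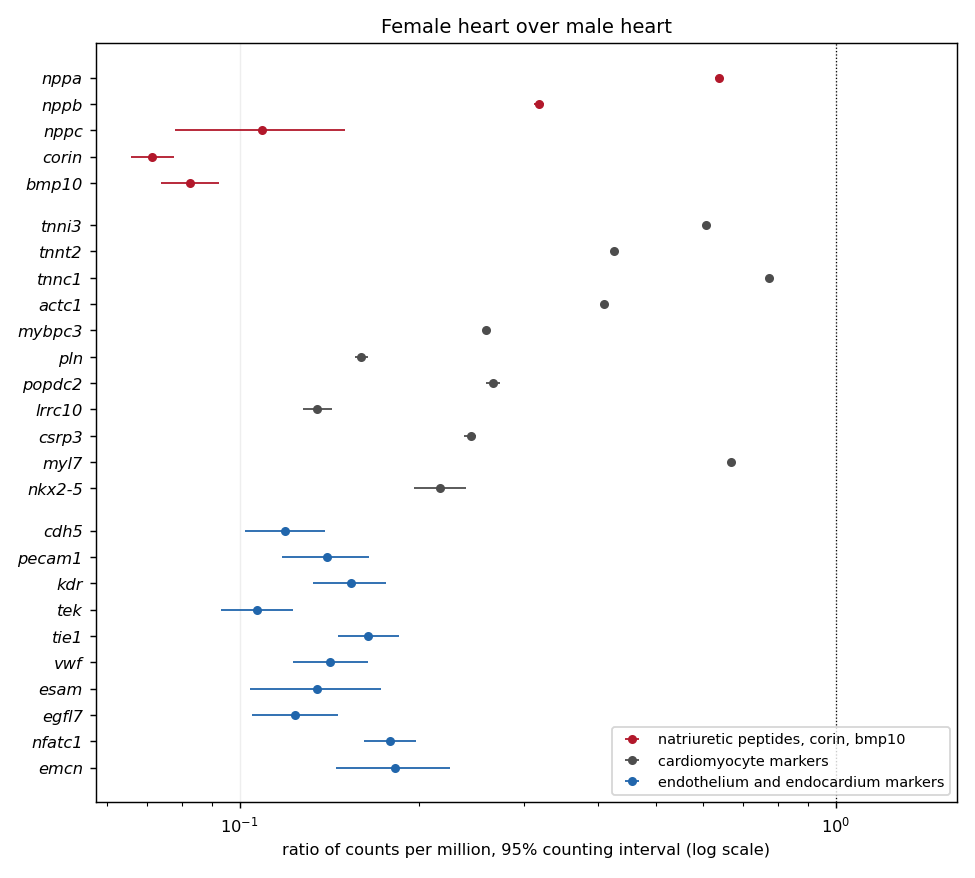
Ratio of CPM in female heart over male heart on a log axis, with 95% counting intervals; natriuretic peptides, corin and bmp10 in red, cardiomyocyte markers in grey and endothelium and endocardium markers in blue. The red points for nppa (0.637) and nppb (0.318) fall among the grey ones, and those for corin, bmp10 and nppc fall to the left of all of them, though the interval of nppc reaches that of lrrc10.

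Between the heads nppb, nppc, corin and bmp10 had ratios nearer to 1 than between the hearts. Female head held 75.7% of the male head TPM of nppc and 71.9% of that of corin, with CPM ratios of 0.782 (0.646 to 0.945) and 0.739 (0.596 to 0.915). The ratio was 1.36 (0.939 to 1.99) for nppb and 1.18 (0.637 to 2.2) for bmp10. For nppa it was 3.8 (0.376 to 187), from 4 and 1 counts, so no difference between the heads was detectable at this depth. Testing female against male in head and heart together, edgeR called 0 of 5 genes and 1.62% of all genes. The lowest adjusted p of the family was 0.882, for corin, with a log2 fold change of -2.27 (SE 1.16), while 9 of 9 oocyte markers were called higher in female.

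Female lung was the only library outside heart with over 4 counts of nppa. Its 14.65 TPM was 0.826% of the female heart level, and its 9.71 TPM of nppb was 1.27%. The cardiomyocyte markers in lung ranged from 0.435% to 26.5% of female heart, with a median of 0.925%. The light chain gene myl7 was at 0.908% and the troponin gene tnni3 at 0.663%. On the myl7 scale nppa was 81.5 per 1000 in lung, near its value in both hearts. In lung nppb was at 54 on that scale, corin at 2.67, bmp10 at 0.778 and nppc at 10.1. Female heart had 38.6, 0.323, 0.128 and 0.0495 in that order, and male heart 80.3, 3.05, 1.05 and 0.34. Whether heart RNA in the lung library had a part in these levels was not tested. Corin in lung was 7.5% and bmp10 5.51% of female heart, but 0.559% and 0.475% of male heart. Heart against lung, with 1 lung library and all 9 libraries in the edgeR fit, gave log2 fold changes of 8.09 for nppa and 8.16 for nppb (adjusted p = 0.803 for both) and called 0 of 5 and 0% of all genes. At an unadjusted p under 0.05 there were 1066 genes, and DESeq2 called 504. The DESeq2 calls held 367 genes higher in heart, including nppa, nppb, corin and bmp10. With sex as a block the edgeR SE rose from 1.45 to 2.02 for nppa and from 1.54 to 1.94 for nppb. It fell from 2.36 to 1.78 for corin and from 2.33 to 1.93 for bmp10. In that fit edgeR called nppa and nppb higher in heart than lung, 2 of 5, against 0.178% of all genes. Without female heart it called nppa, nppb, corin and bmp10, against 2.59%, and without male heart 0 of 5 and 0% of all genes (adjusted p = 0.138 for nppa and 0.135 for nppb). Leaving out either head also gave 0 calls.

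**Figure D4:**
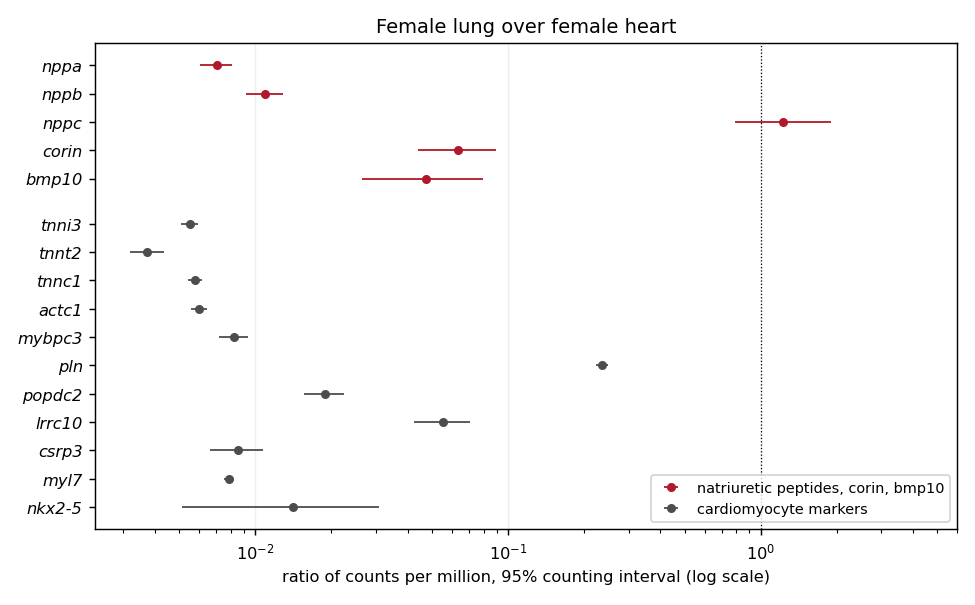
Ratio of CPM in female lung over female heart on a log axis, with 95% counting intervals; natriuretic peptides, corin and bmp10 in red, cardiomyocyte markers in grey. The points for nppa and nppb fall among those of most muscle genes, near 0.01, and nppc is near 1.

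Likeness over the 9 libraries was Pearson's r of log2(TPM + 1), taken among 11208 genes with a symbol and at least 10 TPM in a library. The 15118 genes with a code only were not ranked. Most like nppa were the myosin heavy chain gene myh15 (0.998), the troponin genes tnnt2 (0.99) and tnni3 (0.988), nppb (0.988) and myl7 (0.986). Those most like nppb were tnnt2 (0.995), myh15 (0.991), nppa (0.988), ccdc141 (0.977) and tnni3 (0.976). A different set was most like bmp10: the potassium channel gene kcnj14 (0.988), the muscarinic receptor gene chrm2 (0.985), adprhl1 (0.983), tecta.1 (0.981) and the ventricular transcription factor gene irx4 (0.975). For corin they were the phosphodiesterase gene pde11a (0.988), crhr1.1 (0.984), adprhl1 (0.981), the cyclic nucleotide channel gene cnga3 (0.976) and the cardiac kinase gene tnni3k (0.974). Corin and bmp10 had an r of 0.969 with each other, against 0.814 and 0.865 with nppa. The most like nppc were acadsb (0.961) and phc3 (0.96), followed by hsd3b7, ptpru and rasal3, and its r with nppa was -0.0196. These values rest on 9 libraries of which the hearts set most of the range, and are descriptions.

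The genes directly beside them did not share the pattern of nppa and nppb, which adjoin each other among the RefSeq genes of assembly UCB_Xtro_10.0. The chloride transporter gene clcn6, beside nppa, had 1.14 and 1.18 TPM in the hearts and 2.64 and 3.65 in the heads, female first. The coded gene on the far side of nppb was at 0 in both hearts and at 2.39 TPM in intestine.

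Receptors were not highest where the hormones were. The signalling receptor gene npr1 reached 13.38 TPM in lung, against 2.13 in female and 6.43 in male heart, and 5.64 and 6.41 in the heads. The clearance receptor gene npr3 reached 42.47 TPM in lung, with 0.85 and 4 in the hearts and 6.22 in GI tract, the next highest library. Both receptor genes were at 0 in ovary. Lung is 1 library, also held the highest level of 9 of the 10 endothelial markers, and summed to 460.5 TPM of them. The share of all genes highest in lung was not taken. The part of these markers in the receptor levels was not tested. The receptor gene npr2 was listed, but its symbol was not found in the deposited tables, so it was not analysed here.

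Among the other genes of cGMP synthesis and response, male heart was the highest library for the soluble guanylyl cyclase subunit gene gucy1a1 (20.79 TPM), the cGMP-dependent kinase gene prkg1 (21.89) and the cGMP phosphodiesterase gene pde5a (18.37). Female heart had 3.75, 4.16 and 2.41 TPM of them. Soluble guanylyl cyclase is the nitric oxide receptor and makes cGMP in parallel to npr1. Its partner subunit gene gucy1b1 had another order, with 4.03 and 11.6 TPM in the hearts against 39.14 and 37.87 in the heads and 41.84 in testes. Of the phosphodiesterases, pde2a was highest in testes (39.74 TPM), and pde9a was at 0 in both hearts and had 1.43 and 4.01 TPM in the heads (female first). Of the 10 tested genes of receptors and cGMP signalling, edgeR called 0 between heart and head, and with sex as a block only pde9a, lower in heart, 1 of 10 beside 13% of all genes. The median log2 fold change of the list was 0.488, beside 0.102 for all genes, but -0.783 without male heart (all genes -0.592) and 1.16 without female heart (all genes -0.318).

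Among peptide-processing genes, the convertase gene furin, which cuts pro-BNP in mammals, was highest in male heart at 42.78 TPM and stood at 14.13 in female heart. The convertase gene pcsk6, which activates corin in mice, was at 16.44 TPM in female heart and 0.64 in male heart, the reverse order of corin itself. It was at 26.65 in lung, 21.35 in ovary and 12.45 and 10.23 in the heads, female first. Oocyte markers were high in female heart, lung and ovary, and their part in the pcsk6 levels was not tested. Neprilysin (mme), which degrades natriuretic peptides, was at 0.02 TPM in female heart and 0.08 in male heart, below the 1.75 and 5.19 of the heads. Of the 9 tested proteases, edgeR called 0 between heart and head, and 1 with sex as a block, mme, lower in heart, beside 13% of all genes. The list median was 0.321 (all genes 0.102). It was -0.312 with sex as a block (all genes -0.143) and -0.519 without female heart (all genes -0.318). Without male heart it was 0.43 (all genes -0.592).

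Of the 10 genes of the regulated secretory pathway, 8 were highest in a head library. The share of all genes highest in a head was not taken, so this count has no background. The amidating enzyme gene pam, a main membrane protein of atrial granules in the rat, was highest in male heart at 731.02 TPM, with 165.72 in female heart and 237.43 and 260.79 in the heads. The granule genes chga, chgb and cpe were at 0.83, 5.26 and 0.62 TPM in female heart and 0.87, 1.76 and 1.36 in male heart, against 88.67, 112.63 and 412.22 in female head. With sex as a block, edgeR called 9 of 10 lower in heart, against 13% of all genes, and without it 0. The list median was -5.14, beside 0.102 for all genes. The 8 neuron markers moved with them, summing to 10.73 and 35.57 TPM in the hearts and to 1071 and 1125 in the heads (female first), with none at 0. Their part was not tested.

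In the pathway of BMP10, the co-receptor gene eng was highest in male heart at 57.05 TPM, with 10.54 in female heart, 36.96 in lung and 3.76 and 6.31 in the heads. The receptor gene acvrl1 was low in every library, with 0.13 TPM in female heart (8 counts) and 0.67 in male heart (13 counts). Its highest value was 2.27 TPM in testes (48 counts). The related ligand gene gdf2 (BMP9) did not pass 0.44 TPM in any library. The inhibitory smad6, a common target of BMP signals, was at 30.8 TPM in male heart, 112.87 in female heart, 138.9 in lung and 10.82 in ovary. Oocyte markers were high in female heart, lung and ovary, and their part in the smad6 levels was not tested. The titin-cap gene tcap, whose protein binds BMP10 in mouse heart, had 5637.75 and 13283.73 TPM in the hearts and 3185.74 and 3780.85 in the heads, female first. Of 15 tested genes, edgeR called 0 between heart and head, and with sex as a block eng higher and the BMP-binding gene bmper lower in heart, 1 each of 15 beside 1.42% and 13% of all genes. The list median was 1.13, beside 0.102 for all genes.

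**Figure D5:**
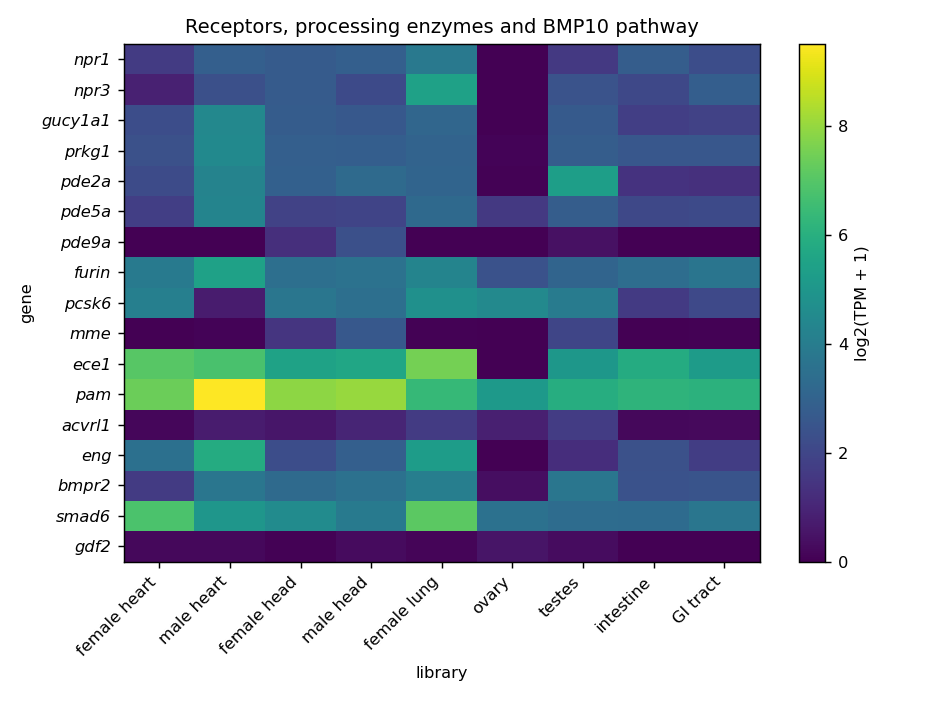
Log2(TPM + 1) of 17 genes of natriuretic peptide reception, peptide processing and BMP10 signalling in the 9 libraries, brighter for higher. Male heart is brightest for pam, eng, furin, gucy1a1, prkg1 and pde5a, lung for npr1, npr3 and smad6, and ovary is darkest for both npr genes.

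Transcription factors of heart muscle were highest in male heart for 10 of 14 genes, against 5.75% of all genes with at least 1 TPM in a library. In female and male heart the factor gene nkx2-5 had 10.79 and 47.81 TPM, tbx5 7.97 and 28.68, and hand2 24.43 and 191.07, while gata4 had 27.68 and 75.38 there and also 53.65 in testes and 47.91 in intestine. With sex as a block edgeR called 9 of 14 higher in heart than head, against 1.42% of all genes, and without it 0. The list median was 5.34, beside 0.102 for all genes. Genes known as chamber markers in mammals gave mixed values. The atrial light chain genes myl7 and myl4 were at 28174.42 and 381.81 TPM in male heart, but sarcolipin (sln) was at 0 and 2.03 in female and male heart and 304.39 in male head. The ventricular genes irx4 and myl3 were at 59.3 and 28757.39 TPM in male heart, while myl2 was at 1.09 there and at 0.74 in female heart.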

How the data were processed

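Per the labels' protocols, RNA was purified by Qiagen kit and sequencing libraries were prepared by Kapa mRNA chemistry. The submitters' processing notes list RSEM 1.3 and deepTools without saying what each did. Genome build, aligner and annotation source were not given in the sources used here. The authors deposited a table of counts, whole numbers not scaled for depth, read here as rounded RSEM estimates because TPM was above 0 for 1272 values whose count was 0. They also deposited TPM with 2 decimals, which sum to about 1000000 per library. The row without a gene name (0.0113% to 1.78% of counts) was left out of totals and tests.

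Samples were grouped by the tissue label. The main test on counts was edgeR 4.0.16's quasi-likelihood F test (TMM factors, filterByExpr, Benjamini-Hochberg adjusted p under 0.05 over all genes tested). It was also run on simulated counts that gave every gene the same fixed spread. That run cannot show how the test behaves at the spread of these libraries. SE is the fold change over the root of F. Alternatives were a sex block, RLE factors, no filter, DESeq2 1.42.0, limma 3.58.1 on log2(TPM + 1) and log2(TPM + 0.1), and leaving out each head or heart library. Head and heart pairs differed by more than sampling noise (chi-square per degree of freedom of 101 and 994). The genes reported and 13 lists (127 of 135 symbols found) were chosen with earlier results of these data known. Genes named are all of these, the most abundant or central genes of each list, and the 5 most correlated genes per gene. Correlated genes were taken among those with a symbol and at least 10 TPM in a library. Neighbouring genes and the less abundant list genes named were added after their values were seen. Overlapping or duplicated genes may share counts, and strand use in counting is not given.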

Additional observations from a re-analysis of the deposited data

Results flagged for a closer look

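For 3 genes the difference between female and male went one way in head and the other way in heart, with 1 library per sex and tissue; whether the tissues differ was not tested. The level of nppa was 0.31 TPM higher in female than in male head (0.38 against 0.07, from 4 and 1 counts) while the female minus male difference in heart was -876 TPM. The level of nppb was 0.94 TPM higher in female head (4.11 against 3.17) and differed by -1497 TPM (female minus male) in heart. The level of bmp10 was 0.03 TPM higher in female head (0.21 against 0.18) and differed by -26.96 TPM (female minus male) in heart. In head the 95% counting interval of the CPM ratio included 1 for all 3 genes.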

How the results depend on the processing

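Calls depended on the fit, while the log2 fold change of nppa, nppb, corin and bmp10 was above 0 for heart against head, the other 6 tissues and lung in every setting tried. Between heart and head edgeR called 0 genes, against 2784 with the sex block, 3907 with DESeq2, 3912 and 3845 with limma on log2(TPM + 1) and log2(TPM + 0.1), and 458 to 10396 when a library was left out. The log2 fold change of nppa was 14.5 with the sex block, 14.6 with DESeq2, 10.8 and 12.9 with limma, and 13.9 to 15.6 when a library was left out; for nppb these were 9.26, 9.6, 8.16 and 8.47, and 8.24 to 10.2. For corin they were 4.24, 5.38, 3.01 and 3.4, and 2.14 to 6.27, and for bmp10 6.25, 7.32, 3.12 and 4.91, and 4.27 to 8.19. The limma fits called 74 and 79 genes higher in heart, nppa and nppb among them. They called neither corin (limma adjusted p = 0.228 and 0.212) nor bmp10 (0.16 and 0.0895). The log2 fold change of nppc turned negative with the sex block (-0.191) and limma (-0.72 and -1.04). It was -1.99 to 1.52 when a library was left out, and the cause was not tested.

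Heart against the other 6 tissues gave 0 calls, 1018 with the sex block, 2430 with DESeq2, 0 with either limma fit and 553 to 4438 when a head or heart was left out. With the sex block, DESeq2 and a head or heart left out the log2 fold change was 14.6, 14.6 and 14.1 to 15.2 for nppa, 9.25, 9.76 and 8.43 to 10.4 for nppb, 6.46, 7.81 and 4.82 to 8.96 for corin, and 7.97, 9.13 and 6.31 to 10.2 for bmp10. For nppc the sex block gave 1.41, DESeq2 2.44, limma 0.17 and 0.484, and leaving out a head or heart 0.0285 to 3.56. With limma (pseudocounts 1 and 0.1) the values were 10.3 and 12.6 for nppa, 8.6 and 9.14 for nppb, 3.91 and 5.28 for corin and 3.27 and 5.74 for bmp10. Leaving out the lung library, chosen after seeing the data, called 0 genes and gave 15.9 for nppa. Head against the other 6 tissues gave 2300 calls, 1419 without a filter, 4266 and 3745 with limma, 3610 with the sex block and 1315 to 9989 when a library was left out. There nppa was -2.28 and called with limma on log2(TPM + 1), and bmp10 turned from 0.834 to -0.368. With a library left out nppb was -1.66 to -1.16, nppc 1.75 to 2.33 and corin 1.57 to 2.3. Heart against lung gave 0 calls, 117 with the sex block, 504 with DESeq2 and 0 to 1185 when a library was left out. With DESeq2 it gave 8.57 for nppa, 8.71 for nppb, 8.12 for corin and 8.34 for bmp10, and with the sex block 8.09 for nppa and 7.66 for nppb. With a library left out these were 7.64 to 8.71 for nppa, 7 to 9.07 for nppb, 4.45 to 8.68 for corin and 4.87 to 8.88 for bmp10. Female against male gave 312 calls, 553 with DESeq2 and 0 with limma on log2(TPM + 1), where 1232 had an unadjusted p under 0.05. That of nppa moved from -0.0503 to 0.0633 without a filter and 0.459 with limma on log2(TPM + 0.1).

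No paired analysis was possible because replicate numbers only name samples in listed order and the labels do not say that tissues share an animal; the sex block matches tissues by the sex label alone. A fit that leaves a tissue with 1 library assumes that it varies like the others. The median over all genes of heart minus head was 0.102 with TMM, 0.159 with RLE factors and -0.566 on the log2(TPM + 1) scale.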
